A study of Mus musculus with 42 samples.

Results

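The Trim5-Trim12-Trim30 cluster is a run of 8 related genes on mouse chromosome 7: Trim34a, Trim5, Trim12a, Trim12c, Trim30b, Trim30c, Trim30a and Trim30d. The members were taken by symbol from the mm10 annotation, and all 8 were found among 21884 protein-coding genes. They were selected on the Pol II and H3K27ac signal of Nur77-KO against WT in these same libraries, so that contrast is described here without a test. The data are ChIP-seq libraries of bone marrow-derived macrophages (BMDMs), grown for 7 days in L929-conditioned medium from the marrow of male mice aged 6 to 12 weeks. WT and Nur77-KO cells were left untreated (0 h) or exposed to 100 ng/ml LPS for 1 h or 18 h, which gives 6 groups. Each group has 3 libraries for RNA polymerase II (Pol II), 3 for H3K27ac and 1 input library without antibody, 42 in all. The study describes the KO as a whole-body deletion of Nr4a1, the gene of Nur77, made by crossing loxP mice to a CMV-Cre line from which Cre was then bred out, with WT littermates as controls. The sample labels give the strain of both genotypes as C57Bl6/J, which the study names for the Cre parent; the strain of the loxP parent is not given in the sources used here. The labels give the KO genotype only as "cre". The study's methods call its ChIP-seq replicates biological, but neither they nor the labels say whether the 3 libraries of a group come from separate mice, so the p-values measure only the spread between these libraries.

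TRIM proteins carry a RING finger, which transfers ubiquitin, next to a B-box and a coiled coil, and many end in a SPRY domain that recognizes a target. Primate TRIM5 binds the capsid of incoming retroviruses and starts a ubiquitin signal that activates the kinase TAK1. Rodents hold several copies in its place: Trim5, Trim12a and Trim12c are the TRIM5-like genes, of which TRIM12c has been linked to TRAF6 signalling, and Trim30a to Trim30d are a rodent branch of the same group. TRIM30a is known as an interferon-inducible inhibitor of Toll-like receptor signalling that promotes loss of TAB2 and TAB3, the adaptors of TAK1. Trim34a is an interferon-inducible relative. LPS acts on macrophages through TLR4, first on NF-kB and AP-1 targets, then through secreted interferon on genes that carry an interferon-stimulated response element.

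The values used here are normalized tags, the sequenced fragments of a listed region scaled to a library of 10 M tags (M, mega). Pol II was summed over the gene body with 500 bp either side and reports polymerase on the gene. H3K27ac, an acetyl mark of active promoters and enhancers, was summed within 2500 bp of the gene start. A value of 0 means that no region was listed there, not that no tag was sequenced. The libraries hold 21.7 to 36.1 M tags for Pol II, 13.5 to 55.4 M for H3K27ac and 25.6 to 45.3 M for input. All 10 macrophage markers were above 0 in the 18 Pol II libraries, with sums of 23880 to 49400 in WT and 26330 to 43080 in KO. Of 5 T cell markers, Cd3e, Cd3g and Cd2 were at 0 in all 18 and the other 2 above 0 in all 18, with sums of 135.5 to 190.2 in WT and 144.2 to 188.3 in KO. Of 5 neutrophil markers, Ly6g, Elane and Mpo were at 0 in all 18 and none was above 0 in all libraries of a genotype, with sums of 0 to 16.5 in WT and 0 to 7.32 in KO. The sums of 5 B cell markers, with Pax5 at 0 in all 18, were 41.4 to 158.6 in WT and 59.5 to 161.2 in KO. The 5 fibroblast markers were at 0 in all WT libraries and summed to at most 6.21 in KO. The part of other cells in the results was not tested. Over Nr4a1 at 0 h, Pol II was 195 ± 11.3 (SD, n = 3) in WT and 78.0 ± 8.96 in KO, and at 1 h it was 26.3 ± 3.74 and 36.4 ± 2.77, so KO libraries still list regions there. For H3K27ac, KO replicate 1 stood apart: among the 7 members above 0 in KO it had the highest value of its group in 7 at 1 h and the lowest in 7 at 18 h.

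The promoters show how close these copies are and which carry a match to the interferon element. RefSeq windows on GRCm38.p6 (the mm10 assembly), from 250 bases before to 50 after a gene start, were found for all 8 members. The core of the interferon-stimulated response element, GAAA followed after 2 bases by GAAA, was searched on both strands, and capitals mark it here as read on the gene's strand, with TTTC on either side of the 2 bases. They occur in 3.44% of 32851 such windows and in those of 6 of the 8 members. Stretches of 60 bases around the match are printed 5′ to 3′ on the gene's strand.

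Trim34a, chr7:104244442-104244501, plus strand: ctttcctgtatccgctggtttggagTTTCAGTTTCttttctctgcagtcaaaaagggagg
Trim5, chr7:104288121-104288180, minus strand: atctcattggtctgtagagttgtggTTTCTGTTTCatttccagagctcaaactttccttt
Trim12a, chr7:104315451-104315510, minus strand: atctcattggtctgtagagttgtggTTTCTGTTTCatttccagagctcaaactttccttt
Trim12c, chr7:104353344-104353403, minus strand: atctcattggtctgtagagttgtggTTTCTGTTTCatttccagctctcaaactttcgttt
Trim30a, chr7:104465195-104465254, minus strand: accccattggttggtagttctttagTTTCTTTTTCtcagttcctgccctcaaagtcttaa
Trim30a second start, chr7:104446089-104446148, minus strand: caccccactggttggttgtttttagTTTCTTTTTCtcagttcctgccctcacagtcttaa
Trim30d, chr7:104507856-104507915, minus strand: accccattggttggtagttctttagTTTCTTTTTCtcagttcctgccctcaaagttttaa

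The Trim5 and Trim12a stretches are the same. Trim30c has no match in its RefSeq window, and its part closest to the Trim30a stretch, identical in 52 of 60 aligned columns, is chr7:104400881-104400940 on the minus strand.

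Trim30c: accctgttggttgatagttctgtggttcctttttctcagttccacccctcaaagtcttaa

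Trim30b has no match either, neither in its RefSeq window at chr7:104358597-104358896 nor in the 300 bases around its GENCODE start at chr7:104369835-104370134, which is the start used for H3K27ac. Of the motifs linked to the factors of the study, AP-1 (TGANTCA) was found in the windows of Trim30a and Trim30d against 7.81% of all windows, and NBRE (AAAGGTCA, or TGACCTTT on the other strand), the site a single Nur77 molecule binds, in the RefSeq window of Trim30b against 1.51%. The AP-1 search left the middle base free, and both AP-1 matches read TGAATCA, with neither C nor G there. None of the AP-1 and NBRE matches overlaps the interferon core. A match is a run of letters and not a shown binding site.

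Over the whole windows, local alignment put Trim5 and Trim12a at 100% identity over 241 columns, Trim5 and Trim12c at 94.2% over 278, and Trim30a and Trim30d at 93.9% over 294. The window of Trim12a, the member without any listed region in KO, is given in full, chr7:104315446-104315745 on the minus strand, with the interferon core in capitals.

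Trim12a window: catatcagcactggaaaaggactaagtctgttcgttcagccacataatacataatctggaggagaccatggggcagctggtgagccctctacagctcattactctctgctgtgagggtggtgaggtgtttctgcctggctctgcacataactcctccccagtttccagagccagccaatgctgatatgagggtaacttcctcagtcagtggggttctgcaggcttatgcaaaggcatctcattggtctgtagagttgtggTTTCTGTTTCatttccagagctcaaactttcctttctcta

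How far a tag can be placed among such copies was measured on the reference, as the share of all words of 50 or 100 bases in a member's window that occur once in the 21 chromosomes, on either strand. Trim5 had the lowest share over the gene body, 45.8% of 50-base words and 62.9% of 100-base words. For Trim12a these were 76.8% and 91.5%, and for Trim30c, the highest, 93.8% and 98.6%. Near the start, Trim5 and Trim12a were alike at 62.8% and 62.7% of 50-base words, and 26.7% of the words of each occur in the other. So most of the Trim12a window can be placed uniquely at either length. Read length and the treatment of tags with several matches are not given in the sources used here.

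**Figure D1:**
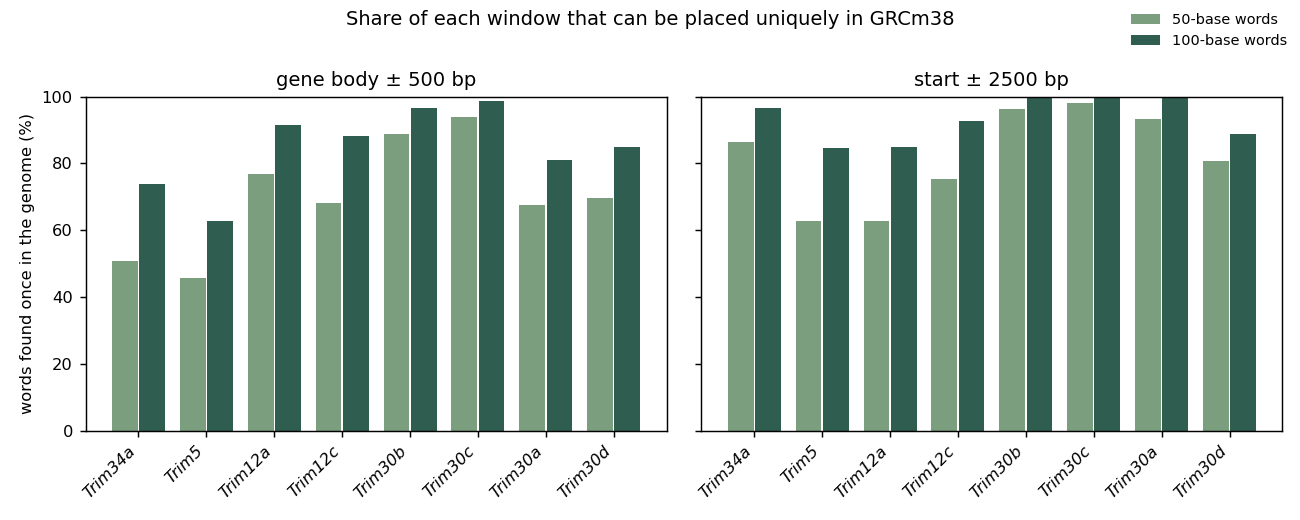
Percentage of 50-base (light) and 100-base (dark) words of each member's Pol II window (left) and H3K27ac window (right) that occur once in GRCm38, members in chromosomal order. Trim5 is lowest over the gene body at 45.8% and 62.9%, and Trim30c is highest at 93.8% and 98.6%.

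Along the locus, the KO libraries listed no region of either antibody for 41.1 kb, from chr7:104290191 to chr7:104331294, an interval that starts just upstream of Trim5, takes in all of Trim12a and ends inside Trim34b. None of the 18 KO ChIP libraries had a region over Trim12a, while the 18 WT ChIP libraries had 43. The 3 WT inputs had 6 regions over Trim12a and the 3 KO inputs had 0. The cluster itself spans 263 kb (chr7:104244457-104507849), and outside the empty stretch KO libraries listed strong regions, for example over Trim12c, Trim30c and Trim30a.

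**Figure D2:**
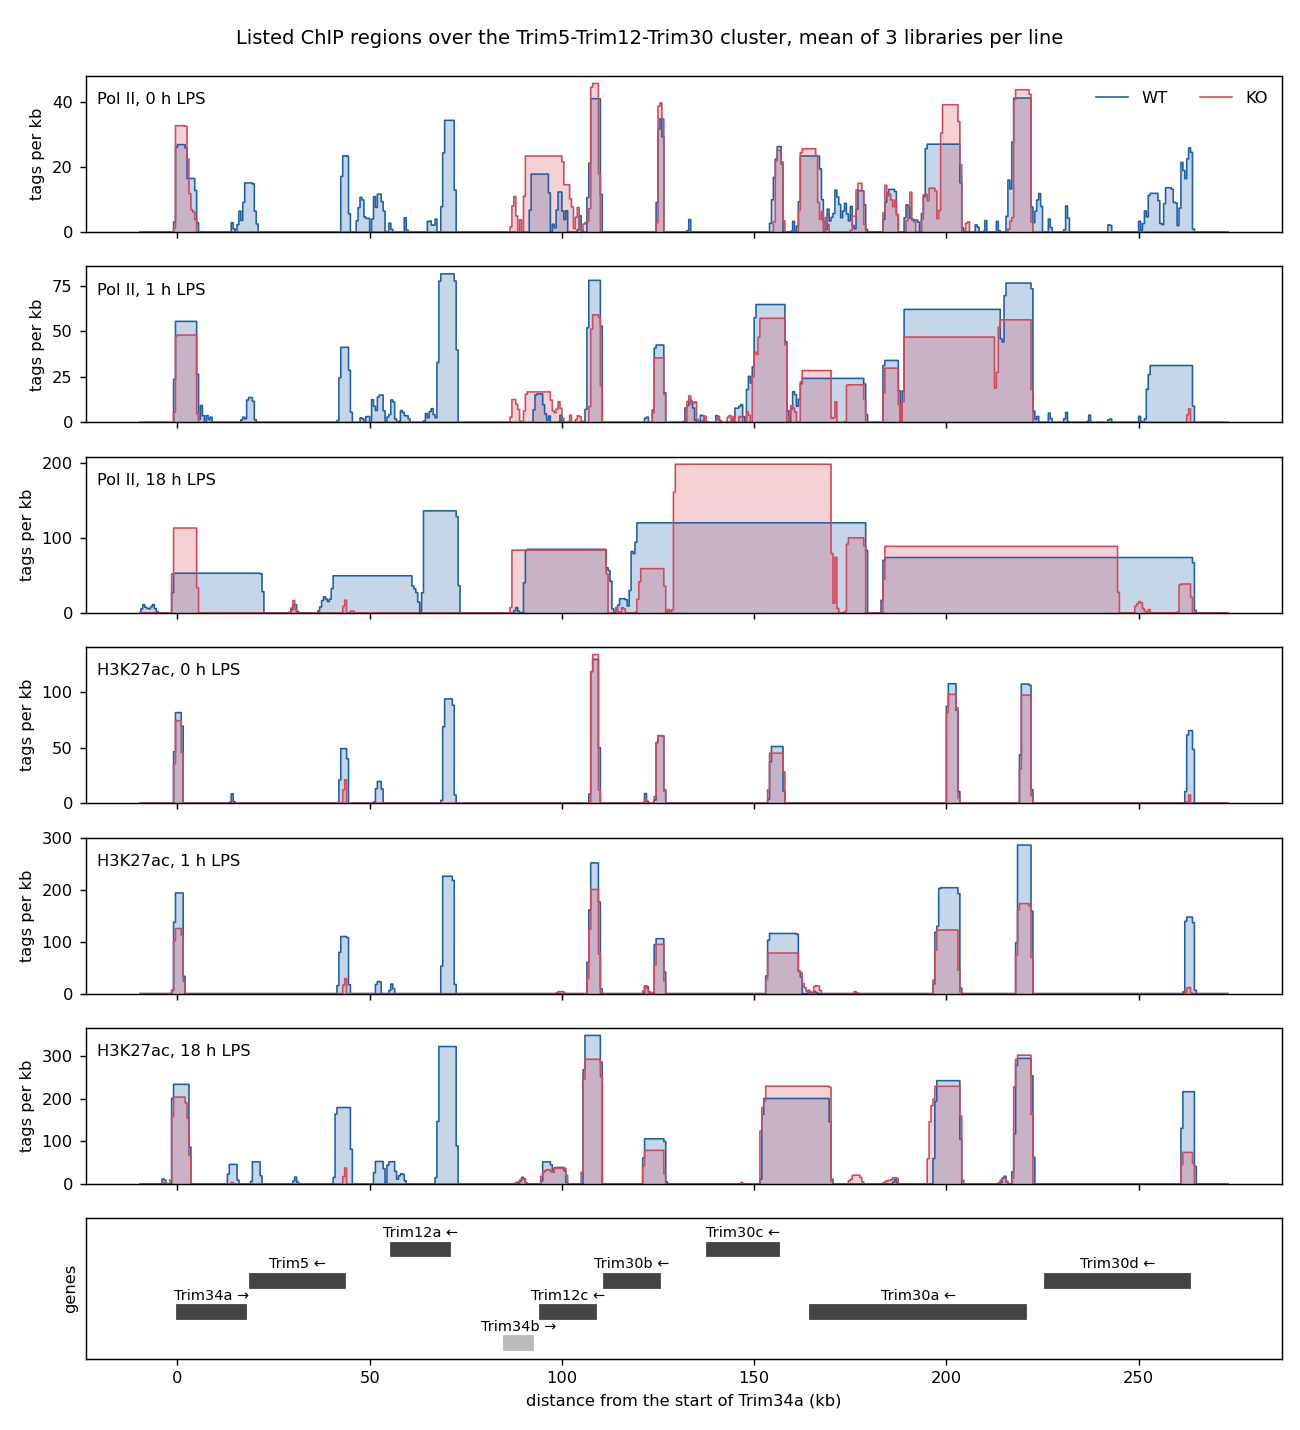
Mean tags per kb of the listed regions in 500 bp bins (3 libraries per line, WT blue, KO red) for Pol II and H3K27ac at 0, 1 and 18 h, against distance from the start of Trim34a in kb, with the genes and their strand at the bottom. KO has no listed region from 45.7 to 86.8 kb, where WT rises over Trim12a. Flat blocks at 18 h are single regions that reach over several genes.

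Trim12a (chr7:104299894-104315466, minus strand), a TRIM5-like gene, had a listed Pol II region in every WT library and in no KO library. The WT values were 78.0, 108 and 104 normalized tags at 0 h, 341, 342 and 341 at 1 h, then 1355, 1397 and 1423 at 18 h, and all 9 KO values were 0. H3K27ac at its start in the WT libraries was 259.5, 293 and 259.5 at 0 h, 713, 687 and 725 at 1 h, then 1342, 1370 and 1273 at 18 h, with 0 in all 9 KO libraries. No WT and KO libraries overlapped at any time. The window without antibody gave 5.56, 21.6 and 74.4 tags in the WT inputs at 0, 1 and 18 h and 0 in the 3 KO inputs, so the input, too, differs between the genotypes here. Each input group is 1 library, and its part in the ChIP values was not tested.

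Trim5 (chr7:104263386-104288094, minus strand), the namesake of the family, showed nearly the same pattern. Pol II in WT was 56.7, 72.5 and 60.2 at 0 h, 102, 94.6 and 108 at 1 h, then 439, 481 and 468 at 18 h. In KO it was 0 in the 6 libraries at 0 h and 1 h and 22.0, 35.5 and 23.1 at 18 h. The WT mean at 18 h was 17.2-fold that of KO over the gene body, while within 500 bp of the start WT had 49.5 ± 5.11 and KO 12.8 ± 0.153. H3K27ac did not reach 0 in KO: it was 14.1, 19.9 and 15.5 at 0 h against 102, 103 and 107 in WT, and 21.4, 33.1 and 27.7 at 18 h against 677, 740 and 779. The ratio of the WT to the KO mean widened from 6.30 at 0 h to 12.1 at 1 h and 26.7 at 18 h. Trim5 is also the member whose sequence is shared most: 54.2% of the 50-base words of its Pol II window occur more than once in the genome, and the member that holds most of them is Trim12c, with 15.2% of the words. The part of such tags in either genotype was not tested. In WT, 44.2% of the Pol II value at 0 h and 93.7% at 18 h came from regions shared with a neighbour, against 0% in KO at 18 h.

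Trim12c (chr7:104338754-104353362, minus strand), the TRIM5-like gene next to the empty stretch, kept its signal in KO. Pol II in KO was 294, 297 and 271 at 0 h, above the WT values of 152, 208 and 172. At 1 h the order was turned, with 204, 212 and 183 in KO and 254, 249 and 240 in WT, and at 18 h the libraries overlapped at 1306 ± 5.18 in KO and 1323 ± 46.0 in WT, where 100% of the value in both genotypes came from regions shared with a neighbour. H3K27ac overlapped at 0 h, with 266 ± 7.05 in KO and 282 ± 8.89 in WT, was lower in every KO library at 1 h (515 ± 26.0 against 706 ± 43.2) and overlapped again at 18 h (1174 ± 217 against 1392 ± 124). The Pol II difference at 0 h vanished when only regions of at least 30 tags per kb were kept, where the log2 difference between KO and WT was -0.026 and not 0.68. Its start thus carried similar acetylation in both genotypes before LPS.

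Trim30d (chr7:104470014-104507849, minus strand), at the far end of the cluster, was at or near 0 in KO before LPS and at 1 h, and carried signal in both genotypes at 18 h. Pol II in WT was 143, 176 and 175 at 0 h, 358, 391 and 382 at 1 h, then 2877, 2848 and 2876 at 18 h. In KO it was 0, 0 and 0 at 0 h, 0, 9.44 and 7.97 at 1 h, then 1921, 1911 and 1856 at 18 h. At 18 h, however, 91.8% of the KO value and 100% of the WT value came from regions that reach Trim30a. With each region given whole to the gene at its midpoint the log2 difference at 18 h turned to 4.05, and without regions that overlap an input region to 1.24. Within 500 bp of the start, KO had 33.7 ± 4.38 and WT 73.9 ± 0.415 at 18 h. H3K27ac at the start, free of such regions, was 6.86, 6.23 and 0 in KO at 0 h against 125, 136 and 114 in WT. At 1 h it was 26.2, 6.79 and 5.57 in KO against 373.6, 366.5 and 350.6 in WT, with the highest KO value in replicate 1, and at 18 h it was 170, 279 and 245 against 699, 731 and 771. The ratio of the WT to the KO mean was 28.7 at 0 h and 3.17 at 18 h, whereas for Trim5 it widened. The ratio of 28.7 rests on low KO values, among them a 0 that means only that no region was listed. The difference between those trends was not tested.

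Trim30a (chr7:104409025-104465193, minus strand), the inhibitor of TLR signalling, had the highest Pol II per kb in resting WT cells, 11.7 tags per kb, next to Trim12c at 11.4, and these overlapped. Its Pol II values were 602, 714 and 687 in WT and 540, 556 and 644 in KO at 0 h, where the groups overlapped. At 1 h they were 2653, 2424 and 2671 in WT and 1954, 1988 and 1928 in KO, with every KO library lower. At 18 h KO was the higher, 5083, 5116 and 5045 against 4605, 4598 and 4680, a ratio of 1.10. Of these values 100% in WT and 89.4% in KO came from regions shared with a neighbour. H3K27ac at its start was 1128 ± 35.1 in WT and 658 ± 108 in KO at 1 h, and 1264 ± 141 and 1216 ± 271 at 18 h. A further acetylated region lay inside the gene, at chr7:104439635-104448555, where the second RefSeq start falls. It held 305 ± 6.36, 1252 ± 25.2 and 1629 ± 33.2 tags in WT at 0, 1 and 18 h and 282 ± 4.26, 752 ± 166 and 1863 ± 758 in KO. It thus showed the same order of genotypes at 0 h and 1 h as the outer start.

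Trim30c (chr7:104382065-104400837, minus strand) went from among the weakest members to the strongest. Pol II was 33.4, 53.1 and 60.4 in WT and 39.5, 36.0 and 28.3 in KO at 0 h, and 2348, 2340 and 2437 in WT and 3871, 3905 and 3988 in KO at 18 h. At 18 h every KO library was above every WT library, by 1.65-fold in the means. Per kb this was 120 tags in WT and 198 in KO, the highest of the 8 members in each genotype, and in both all of it came from regions shared with a neighbour. H3K27ac overlapped at 0 h and 18 h, in the latter case from a region shared with a neighbour, with 743, 1390 and 1298 in KO at 18 h against 1012, 1005 and 985 in WT.

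Trim30b (chr7:104355382-104369884, minus strand) was the lowest member in WT at 0 h, with 2.27 Pol II tags per kb, a level whose libraries overlapped those of Trim5 at 2.46. Its Pol II was 35.2 ± 5.43 in WT and 37.7 ± 4.34 in KO at 0 h, and 1101, 1221 and 1090 in WT and 462, 487 and 481 in KO at 18 h. In WT, 95.2% of the value at 18 h came from regions shared with another member, against 24.3% in KO. With each region given whole to the gene at its midpoint, the log2 difference at 18 h turned from -1.24 to 2.74. Its H3K27ac, with no shared region, was 434, 435 and 420 in WT and 223, 335 and 322 in KO at 18 h, and did not overlap. Trim34a (chr7:104244457-104262234, plus strand) had 984, 992 and 1003 Pol II tags in WT and 653.5, 631.5 and 632.5 in KO at 18 h. Here, too, the whole WT value came from a region reaching Trim5, and within 500 bp of the start the order was turned, with 113 ± 2.65 in KO and 52.9 ± 0.513 in WT. Its H3K27ac was below WT in every KO library at each time, at 152 ± 7.76 against 180 ± 19.6 at 0 h and 310 ± 15.1 against 476 ± 42.1 at 1 h.

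**Figure D3:**
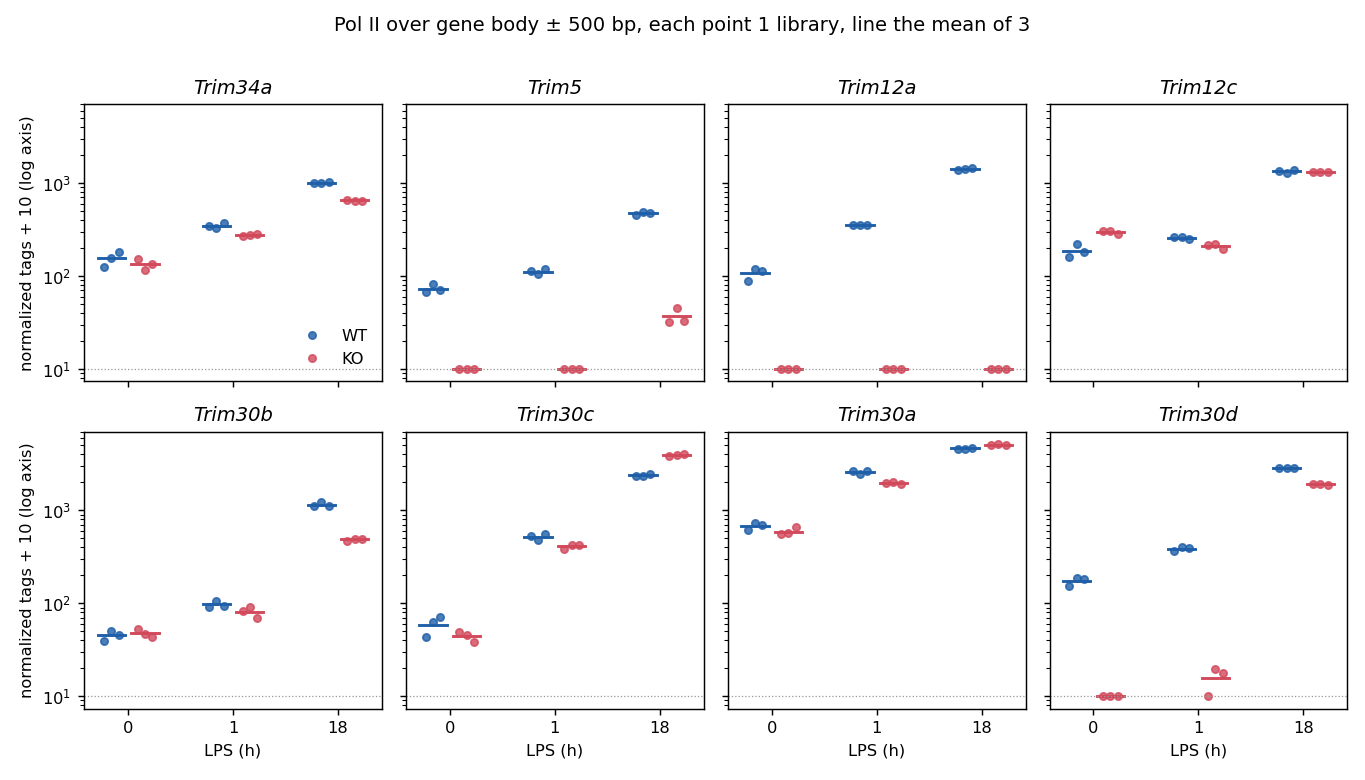
Pol II over each member's gene body, as normalized tags plus 10 on a log axis, by hours of LPS. Each point is 1 library (WT blue, KO red), bars are means of 3 and the dotted line marks 0 tags. Trim12a stays at 0 in all KO libraries while WT reaches 1391 at 18 h.

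**Figure D4:**
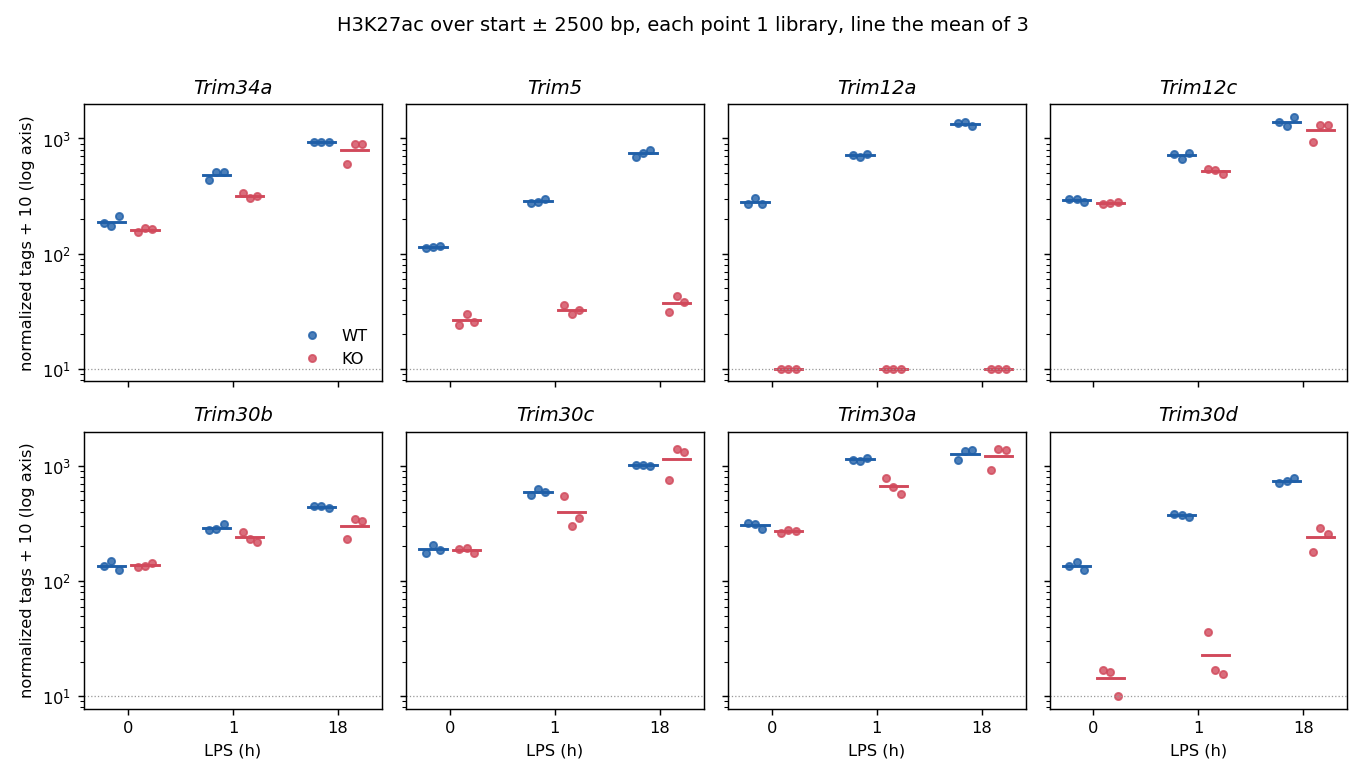
H3K27ac within 2500 bp of each member's start, drawn in the same way. KO lies at 0 for Trim12a and at 27.4 for Trim5 at 18 h against 732 in WT, and Trim12c overlaps WT at 0 h and 18 h.

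Counted over the members, with no test since this contrast chose them, every KO library was below every WT library in Pol II for 3 of 8 at 0 h, 8 of 8 at 1 h and 5 of 8 at 18 h. Among all genes with signal the same held for 6.94%, 10.6% and 30.4%. KO was above in 1 member at 0 h (14.1% of all genes) and in 2 at 18 h (14.0%). The direction at 18 h turned for 3 of those 5 members: Trim34a near its start (0.97), and Trim30b and Trim30d by region midpoint (2.74 and 4.05) and without input regions (0.48 and 1.24). That of Trim12c at 1 h turned to 0.66 without input regions. For H3K27ac KO was below in 5, 8 and 5 members at 0, 1 and 18 h, against 9.11%, 13.0% and 16.4% of all genes. At 1 h, then, all 8 members were lower in KO by both measures, apart from that alternative for Trim12c. The log2 difference at 1 h ran from -0.27 for Trim30b to -5.13 for Trim12a in Pol II.

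The neighbours were compared to place the ends of this pattern. Of 24 other genes within 200 kb, 17 of them olfactory receptors, 3 had signal in at least 2 libraries of a group: Trim34b, Trim6 and, with H3K27ac of at most 4.74, Olfm5. Trim34b lies between Trim12a and Trim12c. Its Pol II was 20.3 ± 1.03 in WT and 77.5 ± 9.80 in KO at 0 h, 2.96 ± 3.83 and 66.6 ± 1.71 at 1 h, then 233 ± 13.0 and 502 ± 2.76 at 18 h, and no H3K27ac was listed at its start. Of its Pol II, 65.7% to 100% of the mean in each of the 6 groups came from regions that reach a member, so its values are not separate from theirs. Trim6, on the far side of Trim34a, had Pol II at 18 h only, 68.2 ± 21.9 in WT and 19.4 ± 7.47 in KO.

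Beyond the cluster, a search within 5 Mb took regions that 8 or 9 of the 9 libraries of 1 genotype list and no library of the other. Of 330 merged Pol II regions 4 were found in WT only, and of 378 H3K27ac regions 5; none was found in KO only. Genome-wide the counts were 6 in WT only and 21 in KO only of 70858 Pol II regions, and 34 and 40 of 65215 H3K27ac regions. Thus 4 of the 6 Pol II regions listed in WT only in the genome lie on this stretch of chromosome 7. Trim12a holds 1 of them (chr7:104308263-104317810), with 116 ± 12.3, 414 ± 24.9 and 1253 ± 55.6 tags in WT at 0, 1 and 18 h. The others lie 1.65 to 2.13 Mb past the cluster: a short region near Gvin1, an interferon-inducible GTPase gene, and a pair whose nearest protein-coding gene is Olfr693, of which chr7:106615450-106623511 held 369 ± 17.4, 636 ± 27.3 and 1358 ± 27.6 in WT. H3K27ac repeated the Olfr693 pair and added a region at Gm4070. Nr4a1 itself lies on chromosome 15. Whether the 2 genotypes carry the same sequence on this part of chromosome 7 was not tested. In region lists, tags that do not align and signal that is lost cannot be told apart.

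The LPS change within a genotype is another contrast than the one that chose the members, though its results were known as well. It was tested with limma on log2(tags + 10), with Benjamini-Hochberg adjustment over all genes. In WT all 8 members rose in Pol II at 1 h, against 18.6% of 13229 genes, and all 8 at 18 h, against 33.3%. At 1 h the call of Trim30d was lost with a pseudocount of 1 (adjusted p = 0.061) and within 500 bp of the start (0.20, adjusted p = 0.28). The median change of the members was 1.17 at 1 h and 3.28 at 18 h on the log2 scale, and that of all genes was -0.82 and -0.0034. The early change was largest for Trim30c, at 3.17 ± 0.13 (SE, adjusted p = 3.6e-13) from a level at 0 h below that of the input, and next for Trim30a, at 1.94 ± 0.069 (adjusted p = 3.3e-14). Trim12a rose by 1.73 ± 0.11 at 1 h and 3.73 ± 0.11 at 18 h (adjusted p = 5e-15), or 14.4-fold in the means. A single estimate of spread served all groups, and the KO libraries of Trim12a, all at 0, add none to it. This lowers its SE and adjusted p, and KO libraries at 0 act in the same way for Trim5 and Trim30d. Trim12c, at 0.47 ± 0.091, and Trim5, at 0.61 ± 0.13, changed least at 1 h. Among members of the Trim30 branch the change at 18 h ran from 2.78 for Trim30a to 5.37 for Trim30c. When regions that overlap any input region were left out, 4 members could be tested at 1 h and 5 at 18 h, and 1 was called higher and 2 lower at 1 h, and 1 higher and 3 lower at 18 h. The member called higher at 18 h could not be tested at 1 h and entered only through its libraries at 18 h, so its direction was fixed. With each region given whole to the gene at its midpoint, the change at 18 h turned to -6.26 for Trim30a, -4.14 for Trim30d and -1.20 for Trim5, and that of Trim30b was 0.029 (adjusted p = 0.89).

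H3K27ac rose at all 8 starts in WT, at 1 h against 25.3% of 11903 genes and at 18 h against 23.6% of 11790. The median change was 1.36 at 1 h and 2.28 at 18 h, against -0.053 and -0.034 for all genes. At 1 h the change was 1.90 ± 0.14 for Trim30a (adjusted p = 3.3e-08), 1.36 ± 0.096 for Trim12a and 1.10 ± 0.13 for Trim30b, the smallest. Here, too, the KO libraries of Trim12a at 0 lower its SE. At 18 h it was 2.70 ± 0.13 for Trim5 and 1.70 ± 0.13 for Trim30b. Acetylation at Trim30a was 1128 ± 35.1 at 1 h and 1264 ± 141 at 18 h, while that of Trim5 went from 275 ± 12.2 to 732 ± 51.5 and that of Trim12a from 709 ± 19.6 to 1328 ± 49.7. At Trim30c the whole value at 18 h came from a region shared with a neighbour, and by region midpoint its change at 18 h turned to -4.23.

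In KO, 5 members had Pol II signal at 0 h. Of these 4 rose at 1 h (20.6% of all genes tested). The call of Trim34a was lost with regions of at least 30 tags per kb (adjusted p = 0.14), and that of Trim30b turned to -0.058 near its start. Trim12c fell by 0.51 ± 0.091 (adjusted p = 6.4e-05), a direction that turned to 0.067 once each library was centred. With it fell 62.2% of all genes, whose median change was -0.62. Near its start, within 500 bp, Pol II at Trim12c rose by 0.31 (adjusted p = 0.0045) in KO at 1 h. At 18 h all 5 rose, against 28.1% of genes, Trim30c by 6.47 ± 0.13 and Trim30a by 3.11 ± 0.069. Trim30d and Trim5, at 0 in the 3 KO libraries at 0 h, entered the fit only through their LPS libraries, Trim30d at 1 h and both at 18 h. Their direction was thereby fixed, so they are not counted here; with them 6 and 7 members were called at 1 h and 18 h. Without regions that overlap an input region, 3 members could be tested at 1 h, of which 0 were called higher and 1 lower, Trim30a. At 18 h 5 could be tested, of which 2 were called higher and 2 lower, Trim30a at -0.94 and Trim12c at -0.90. The 2 called higher could not be tested at 1 h and entered only through their libraries at 18 h, so their direction was fixed. For H3K27ac 5 of 7 rose at 1 h (20.4%) and 7 of 7 at 18 h (18.4%). Trim5 changed by 0.30 ± 0.13 at 1 h (adjusted p = 0.065), which passed with a pseudocount of 1 (adjusted p = 0.04), after quantile normalization (adjusted p = 0.019) and by region midpoint (adjusted p = 0.049), and rose by 0.49 ± 0.13 at 18 h (adjusted p = 0.0046), a fold of 1.66 where WT had 7.04. The call at 18 h was lost without replicate 2 (adjusted p = 0.06) and without replicate 3 (adjusted p = 0.11). By region midpoint the rise of Trim30c at 18 h turned to -4.23 in KO as well. Trim30d changed by 0.60 ± 0.27 at 1 h (adjusted p = 0.078) and rose by 4.08 ± 0.27 at 18 h (adjusted p = 4.7e-09). Trim12a was at 0 throughout and was not tested.

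**Figure D5:**
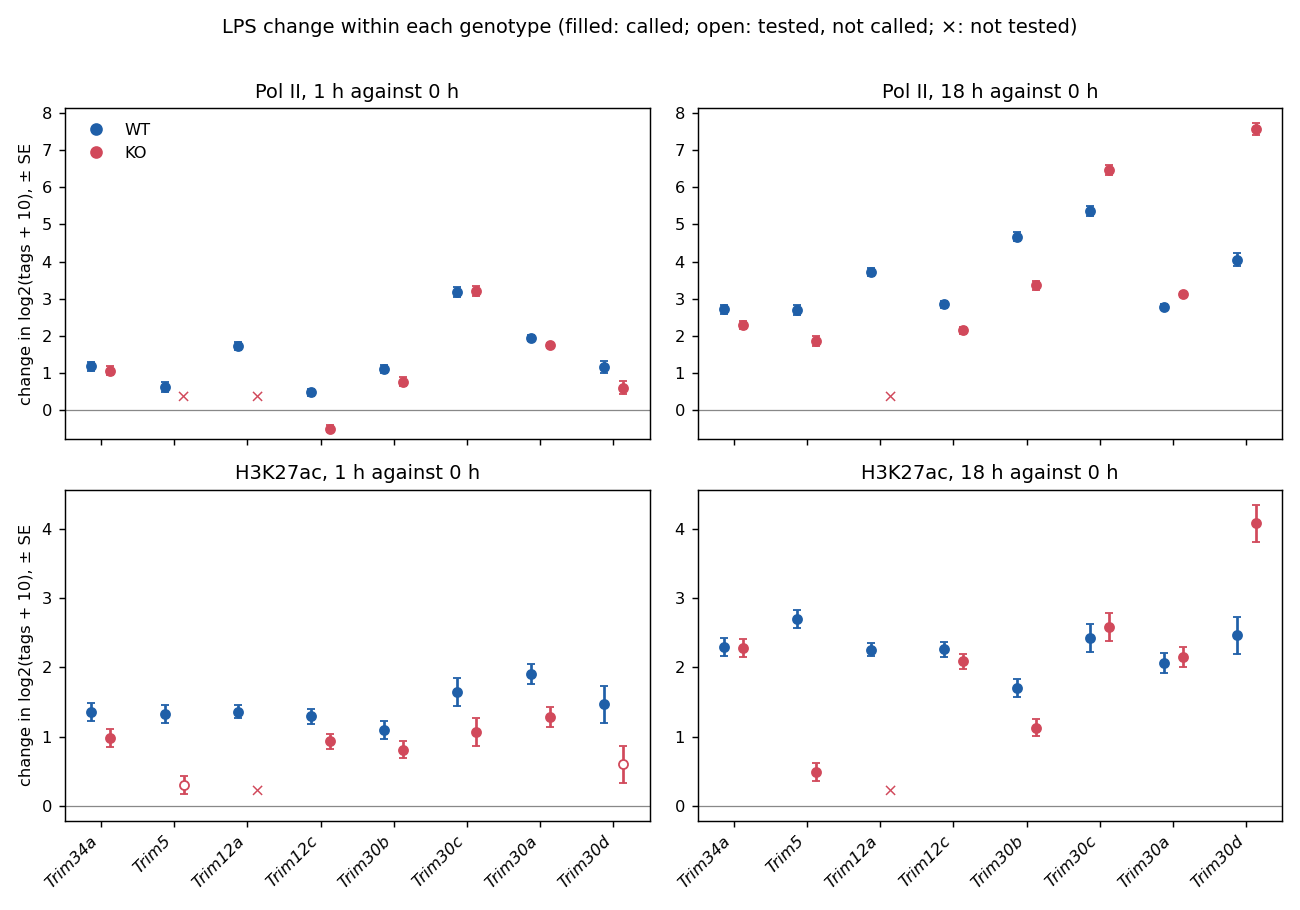
Change in log2(tags + 10) against 0 h with its SE for each member, Pol II above and H3K27ac below, 1 h left and 18 h right, WT blue and KO red. Filled points passed the test, open points did not and crosses mark members not tested. All WT points lie above 0; in KO, Trim12c falls by 0.51 in Pol II at 1 h, which centring turns to 0.067.

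The genotype by LPS interaction, which subtracts the WT response to LPS from the KO response, is the difference of the KO and WT contrasts that chose the members. Its values are therefore given as a description with no test. Trim12a only repeats the WT change with its sign turned, since KO is at 0, and Trim5 and Trim30d start from 0 in KO Pol II. For Trim5 the value in Pol II was -0.61 at 1 h and -0.83 at 18 h, and the latter turned to 1.91 with a pseudocount of 1 and to 3.06 by region midpoint. For Trim30d it was 3.53 at 18 h, which turned to -0.62 with regions of at least 30 tags per kb. Trim12c had -0.98 ± 0.13 (SE) at 1 h and -0.70 ± 0.13 at 18 h, which became 0.085 without input regions at 1 h and 0.0082 with regions of at least 30 tags per kb at 18 h. At 18 h Trim30b had -1.32 ± 0.17, which turned to 2.62 by midpoint and to 0.48 without input regions. Trim30c had 1.10 ± 0.19, and 0.41 by midpoint. Trim30a had 0.34 ± 0.098, which turned to -0.85 with regions of at least 30 tags per kb. Trim34a had -0.42 ± 0.16, and 0.74 near its start. The fit over all genes put 3 members at an adjusted p under 0.05 and more negative in KO at 1 h, as it did 4.23% of genes, and 4 more negative (9.94%) and 3 more positive (4.86%) at 18 h. Nothing is read from these counts, which went to 0 at 1 h and 1 at 18 h without input regions.

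In H3K27ac the same difference was -1.02 ± 0.18 for Trim5 at 1 h and -2.21 ± 0.18 at 18 h, and 1.62 ± 0.38 for Trim30d at 18 h, again as a description. Trim12a here, too, repeats the WT change with its sign turned. The value of Trim5 at 1 h was -0.59 with regions of at least 30 tags per kb, -0.86 without replicate 2 and -1.03 without replicate 3, and that at 18 h was -2.22 without replicate 3. Without KO replicate 1 at 1 h and 18 h, Trim30d had 1.82. The fit over all genes put 2 members at an adjusted p under 0.05 and more negative in KO at 1 h (0.453% of genes) and 2 at 18 h (0.465%). Nothing is read from these counts, which ran from 0 to 8 at 1 h and from 1 to 5 at 18 h as libraries were left out.

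Other genes of the same pathways were counted from fixed lists. Of 60 other Trim genes, Trim6 and Trim34b included, 42 were tested in Pol II in WT at 18 h, of which 17 rose and 11 fell, with a median of 0.19, where 4442 of all 13348 genes rose and 4450 fell. Trim47 fell from 891 ± 74.0 to 205 ± 16.3 tags. Apart from the neighbours Trim34b and Trim6, the largest rise among those called was that of Trim43c, from 0 to 55.4 tags. At 1 h 8 of 38 rose and 26 fell, where 2457 of all 13229 genes rose and 9057 fell. The 16 interferon response genes, among them Ifit1, Isg15 and Irf7, all rose in WT at 1 h and 18 h, with medians of 3.13 and 4.21. In KO 15 rose at 1 h, where 20.6% of all genes did, and 16 at 18 h, where 28.1% did. In the interaction at 18 h 7 of those 16 were more positive in KO and none more negative (median 0.29 on the log2 scale), where 659 of all 13555 genes were more positive and 1348 more negative (median -0.14). At 1 h 3 of the 16 were more positive and 6 more negative (median -0.28). Of all 13415 genes, 1910 were more positive and 567 more negative (median 0.17). In H3K27ac at 1 h the median was -0.56 for the interferon response genes and -0.016 for all genes. Of the former 2 were more negative, as were 55 of all 12141 genes. Of the 7 genes of the TAK1 module, 3 rose and 4 fell in WT at 1 h and 4 rose at 18 h. Tab2, whose protein TRIM30a acts on, went from 1210 ± 126 to 5136 ± 156 at 1 h. Tab3, whose protein TRIM30a acts on as well, fell from 22.5 ± 6.485 to 11.84 ± 1.107.

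The genes whose Pol II followed the summed log2 level of the members most closely over the 18 libraries, out of 12616, were Ifi213 (Pearson r = 0.980), Ifi209 (0.961), Gvin1 (0.951), Apobec3 (0.943) and Susd6 (0.942). The libraries share groups of 3, so r describes the 6 group levels above all. The summed level also carries the KO against WT difference that chose the members, so the ranking is not of the LPS change alone. Ifi213, a gene of the interferon-inducible Ifi200 family on chromosome 1, had 9.26, 166 and 2306 tags in WT at 0, 1 and 18 h and 0, 0 and 582 in KO, and Gvin1, on chromosome 7, 88.7, 266 and 857 against 43.8, 159 and 619.

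The inputs were read over all members, since they received no antibody and had their own listed regions. Summed over the 8 Pol II windows they held 211, 488 and 1363 tags in WT at 0, 1 and 18 h and 215, 365 and 117 in KO. The WT input at 18 h was thus the highest and the KO input at 18 h the lowest. That KO input listed 27554 regions in the whole genome, the WT input at 18 h 95554 and the other inputs 64725 to 108461. Its low sum thus goes with few listed regions genome-wide. The part of the inputs in the ChIP values at 18 h was not tested. At 0 h the sums were close, with single members on either side: Trim12a had 5.56 in WT and 0 in KO and Trim12c 29.7 and 17.7, while Trim30b had 14.0 and 30 and Trim30d 11.4 and 15.9. At 0 h the input over Trim30c, 67.0 in WT and 68.9 in KO, was above its Pol II in each library, which reached 60.4 and 39.5, so the base of its rises with LPS was not above input. The KO input over Trim30b at 0 h was close to its Pol II of 37.7, and that over Trim30d, 15.9, was above its Pol II of 0. Over Trim30a the Pol II values at 18 h were larger than the inputs, with 4628 in WT and 5082 in KO against 535 and 86.7.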

How the data were processed

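Reads were trimmed (Skewer), aligned to mm10 (HISAT2 2.1.0) and stripped of duplicates in HOMER by the authors. Per the file headers, regions were called in each library alone, without input, from 500 bp windows at a Poisson p of 0.001, and joined when under 1000 bp apart. As deposited, each region has a signal in tags per 10 M tags of its library (M, mega), rounded to 0.1. A region partly in a gene's window was shared out by its overlap (GENCODE vM21 gene models). Whole tags could not be recovered, so limma 3.58.1 (R 4.3.3, trend) was fitted to log2(signal + 10) over 18 libraries per antibody. Genes above 0 in 2 or 3 libraries of either group were tested. Calls are at an adjusted p under 0.05. The fit was tested on simulated data. Named genes were the members, neighbours with signal and fixed lists. The members and lists were chosen with earlier results of these data known. Promoters were read from RefSeq and aligned with Biopython 1.88. Alternatives were pseudocounts of 1 and 50, gene filters, scaling, windows, region choices, left-out libraries and a replicate block. The depth bounds how weak a region can be listed.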

Additional observations from a re-analysis of the deposited data

Results flagged for a closer look

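Pol II over Trim12c moved in opposite directions in the 2 genotypes at 1 h of LPS: all 3 WT libraries lay above those at 0 h, and all 3 KO libraries lay below those at 0 h. The difference, KO less WT, was -0.98 on the log2(tags + 10) scale. It was not tested, since the members were chosen on KO against WT. The KO change of -0.51 behind it turned to 0.067 after centring, to 0.31 near the start and to 0.30 with regions of at least 30 tags per kb, and the difference was 0.085 without input regions.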

How the results depend on the processing

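Depth limits what is listed as a region, and a listed 0 bounds no level. In Pol II, leaving out input regions moved the counts of members called, and in H3K27ac the left-out libraries moved those of the interaction; the cause was not tested. The interaction counts describe a contrast that chose the members and support nothing. Without regions that overlap an input region, the members called in Pol II went from 8 to 3 at 1 h and from 8 to 4 at 18 h in WT, from 6 to 1 and from 7 to 4 in KO, and from 3 to 0 and from 7 to 1 in the interaction at 1 h and 18 h. The KO counts of 6 and 7 include Trim30d, and that of 7 also Trim5, whose direction was fixed since they entered only through LPS libraries. The same holds for 1 of the 4 calls left at 18 h in WT and 2 of the 4 in KO. With regions of at least 30 tags per kb, the Pol II calls in KO at 1 h went from 6 to 3 and those of the interaction at 1 h from 3 to 5. Centring took the latter to 6. With signal required in every library, fewer members were tested, and the Pol II interaction gave 1 call at 1 h and 4 at 18 h and that of H3K27ac 1 and 1. The H3K27ac interaction at 1 h gave 1 call with a pseudocount of 1 and 1 after quantile normalization, and 8 at 1 h and 5 at 18 h without KO replicate 1 at 1 h and 18 h. Leaving out each replicate number in turn gave 5 to 6 calls for Pol II in KO at 1 h, 2 to 3 and 4 to 7 for the Pol II interaction at 1 h and 18 h, 6 to 7 for H3K27ac in KO at 18 h, and 0 to 8 and 1 to 4 for the H3K27ac interaction at 1 h and 18 h; the other counts did not change.

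The direction turned in these cases, as log2 values. Without input regions: Trim30a -1.06 and Trim30d -1.68 (WT, 1 h), Trim34a -0.55, Trim12a -0.58, Trim30a -1.06 and Trim30d -2.71 (WT, 18 h), Trim34a -0.65 and Trim30a -0.94 (KO, 1 h), Trim34a -0.65, Trim12c -0.90 and Trim30a -0.94 (KO, 18 h), and interactions of 0.085 for Trim12c at 1 h and 0.58 for Trim12a and 0.48 for Trim30b at 18 h, all in Pol II. By region midpoint: Trim5 -1.20, Trim30a -6.26 and Trim30d -4.14 in Pol II (WT, 18 h), 3.06 for Trim5 and 2.62 for Trim30b in the Pol II interaction at 18 h, and Trim30c -4.23 in H3K27ac at 18 h in WT and -4.23 in KO. Near the start: Trim12c 0.31 and Trim30b -0.058 in Pol II (KO, 1 h), and 0.74 for Trim34a and 0.36 for Trim5 in the Pol II interaction at 18 h. With regions of at least 30 tags per kb: Trim12c 0.30 (KO, 1 h), Trim30c -0.34 in the interaction at 1 h, and Trim12c 0.0082, Trim30a -0.85 and Trim30d -0.62 at 18 h. After centring, Trim12c had 0.067 (KO, 1 h). With a pseudocount of 1, the interaction of Trim5 at 18 h was 1.91. For KO minus WT in Pol II, the turned values were 0.069 (near the start) and 0.98 (at least 30 tags per kb) for Trim30a and -0.026 (at least 30 tags per kb) for Trim12c at 0 h, 0.66 for Trim12c at 1 h without input regions, and at 18 h 0.97 for Trim34a near the start, 2.74 for Trim30b and 4.05 for Trim30d by midpoint, and 0.48 and 1.24 for these without input regions. Of the other values of single members, 1139 LPS and interaction values kept their direction and side of the threshold, 32 passed it only under the alternative and 35 no longer did; of KO against WT, 396 moved by less than the spread and 120 by more.

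The replicate numbers were checked as a pairing. The 45 correlations of same-numbered libraries were -0.0631 to 0.0777 for Pol II and -0.416 to 0.0449 for H3K27ac, none over 0.1, with 15 and 17 of 45 best with their own number. The lowest in H3K27ac joined KO at 1 h and KO at 18 h, at -0.416, -0.332 and -0.367. There the best library of another number gave 0.366, 0.343 and 0.378, so the KO libraries at these times differ beyond the members. With the number as a block the calls were 8, 8, 6 and 7 for LPS and 3 and 7 for the interaction in Pol II, and 8, 8, 5 and 7, and 2 and 2 in H3K27ac, as without it.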
